A study of Lactuca sativa with 32 samples.

Results

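Leaves of red oak leaf lettuce (Lactuca sativa) were compared by RNA sequencing between plants grown under FTAZ:IT-M and plants grown under FTAZ:PCBM organic photovoltaic filters, with light intensity adjusted. The comparison uses 8 of the 32 samples of the series, 4 plants under each filter, grouped by the filter and experiment that the labels name. Light came from ceramic metal halide lamps with incandescent lamps and passed 1 of 3 filters or clear glass, in an experiment with adjusted light intensity (PAR controlled, PC) or in one without the adjustment (height controlled, HC). PAR stands for photosynthetically active radiation. Beside the 2 groups compared, the text uses the HC groups under FTAZ:IT-M and FTAZ:PCBM, and the PC glass group, each of 4 plants; values of the third filter, PTB7-Th:IEICO-4F, are given for a few genes. The labels name no other genotype, treatment or agent that differs between the groups. Growth boxes held 16 plants, of which 8 were kept to a final harvest at week 5 after a harvest at week 3. The labels do not say at which harvest leaves were taken. They also do not say which box held which filter, so filter and box cannot be told apart.

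An organic photovoltaic film blends an electron donor with an electron acceptor, and each absorbs its own range of wavelengths. Both films share the donor polymer FTAZ. PCBM is a fullerene acceptor with weak absorption of red light, whereas IT-M is a fused-ring acceptor that is not a fullerene and absorbs further into the red. Leaves sense spectral quality through phytochromes, which respond to red and far-red light, and through cryptochromes and phototropins, which respond to blue light. In whole leaves, fewer cells of a type and less RNA per cell cannot be told apart. The gene identifiers used here carry no product names, so most genes are known by identifier alone, and the leaf identity of the samples was not checked against marker genes.

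Under adjusted light, the acceptor in the film went with differences in many genes of the leaf, most of them small. Of 24483 genes tested, 6210 (25.4%) were called, meaning an adjusted p under 0.05 (edgeR's quasi-likelihood test, Benjamini-Hochberg). The calls divided into 3019 genes (12.3%) higher under FTAZ:IT-M and 3191 (13%) lower. Called genes changed by 0.43 on the log2 scale in the median, disregarding sign, by 0.48 among those higher and by -0.39 among those lower. A change of at least 1 on the log2 scale was reached by 596 genes (2.43%), of which 412 were higher and 184 lower under FTAZ:IT-M. CPM, the count of a gene scaled to a library of 1000000 counts, had ranges without overlap between the 2 groups for 5022 genes (20.5%), 2429 higher (9.92%) and 2593 lower (10.6%), of which 4220 were also called. Both directions were spread over the range of expression, with 250 genes called higher and 152 called lower among the least expressed quintile and 815 and 1118 among the most expressed quintile.

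**Figure D1:**
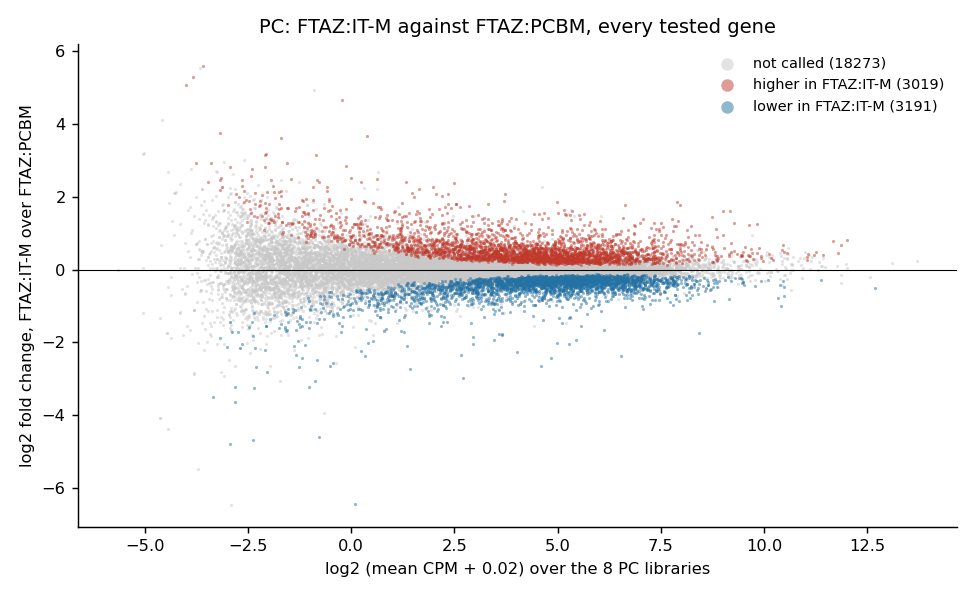
Log2 fold change of FTAZ:IT-M over FTAZ:PCBM in the PC experiment (vertical axis) against log2 of the mean CPM plus 0.02 over the 8 libraries (horizontal axis), with 1 point per tested gene. The 3019 genes called higher (red) and 3191 called lower (blue) form bands on both sides of 0 across the range of expression, and 18273 genes were not called (grey).

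The number of calls depended on which libraries entered the fit. The fit of all 32 samples shares its estimate of the spread over all 8 groups. With only the 2 groups in the fit, edgeR called 3542 genes, 3443 of them called in the same direction by the fit of all 32 samples. In the file headers, FTAZ:PCBM replicates 2 and 3 are numbered 26 and 27 and carry the letter b. The meaning of the letter is not given. Without these libraries 3620 genes were called, 1762 higher and 1858 lower. The header numbers run in blocks by group, 1 to 4 for PC FTAZ:IT-M and 25 to 28 for PC FTAZ:PCBM. In HC they are 9 to 12 and 13 to 16 for the same filters. What the numbers stand for is not given, and filter and number block cannot be told apart. The 8 libraries held 47957826 to 48554534 counts each, with 26273 to 26542 genes detected, and 3 counts correspond to about 0.062 CPM at this depth. Pearson correlations of log2 CPM had a median of 0.981 within FTAZ:IT-M, 0.984 within FTAZ:PCBM and 0.976 between the groups over 16 pairs. The biological coefficient of variation was 18.9% in FTAZ:IT-M and 16.2% in FTAZ:PCBM, against 13.5% under PC glass.

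Gene length moved with the direction of the difference. Genes called lower under FTAZ:IT-M were 2494 bp long in the median, counting exons only, with 7 exon blocks, against 1320 bp and 4 exon blocks for genes called higher and 1597 bp for all genes tested. Among the shortest quintile of the genes (68 to 987 bp), 794 were called higher and 203 lower. Among the longest quintile (2434 to 16570 bp) the balance was opposite, with 207 called higher and 1657 lower. Ranked over 24483 genes, the fold change and the exonic length had a Spearman's rho of -0.30 in PC and -0.037 in HC, a description over genes that share the same libraries.

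The slope of log2 CPM on length was then measured in each library, after centring each gene over all samples. It is given as log2 CPM per doubling of exonic length. In FTAZ:PCBM replicates 1 to 4 it was 0.171, 0.142, 0.108 and 0.0370. In FTAZ:IT-M replicates 1 to 4 it was 0.0559, 0.00958, 0.0294 and -0.0854. All FTAZ:PCBM libraries had positive slopes, and replicate 1 had the highest and FTAZ:IT-M replicate 4 the lowest slope of all 32 libraries. The groups overlapped, since FTAZ:IT-M replicate 1 lay above FTAZ:PCBM replicate 4. The mean was 0.00237 ± 0.0615 (SD, n = 4) under FTAZ:IT-M and 0.114 ± 0.0578 (SD, n = 4) under FTAZ:PCBM, and the difference of -0.112 did not pass a two-sided exact permutation test over the 70 splits (p = 0.0571, smallest possible 0.0286). With each library left out in turn the difference ranged from -0.138 to -0.0829, with exact permutation p from 0.0286 to 0.114. Its lowest p came without FTAZ:PCBM replicate 4, which lay below FTAZ:IT-M replicate 1, and is then the smallest possible. Leaving out FTAZ:IT-M replicate 1 also removes the overlap of the groups. In HC the slopes of the 2 filters differed by 6.4e-05 (exact permutation p = 1).

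With an offset for each library fitted on gene length (lowess, span 0.5), edgeR's quasi-likelihood test called 5015 genes (20.5%), 2652 higher (10.8%) and 2363 lower (9.65%) under FTAZ:IT-M. Of the 6210 calls made without the offset, 4069 were called in the same direction with it, 2 were called in the opposite direction and 2139 were no longer called, while 944 genes were called with the offset alone. Calls were then nearly even across length: 472 higher and 396 lower in the shortest quintile, and 553 and 523 in the longest. Median exonic lengths of the calls became 1653 bp for higher and 1709 bp for lower genes. The offset removes any difference that runs with length, whatever its source; the source was not tested. Of the genes named by rule below, 14 were chosen without regard to the offset, and 13 of these were also called with it.

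**Figure D2:**
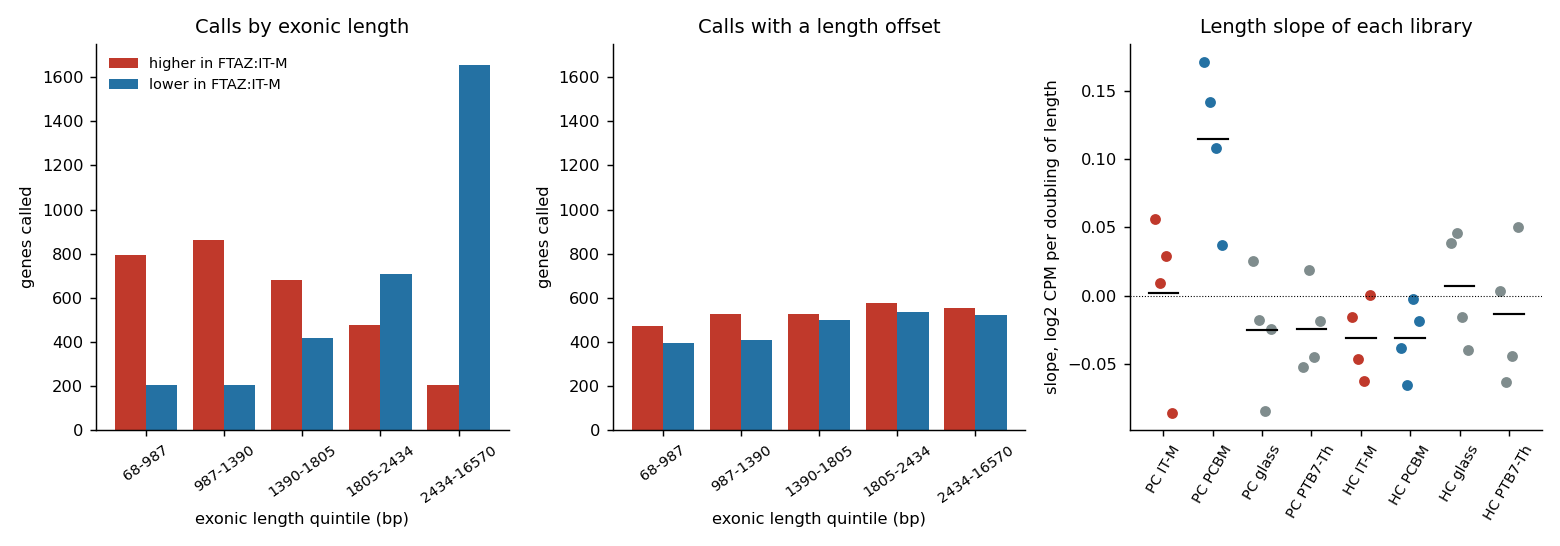
Left and middle, genes called higher (red) and lower (blue) in PC FTAZ:IT-M by quintile of exonic length, without and with a length offset. Right, slope of log2 CPM per doubling of exonic length in each library (points) with group means (black lines). In the longest quintile 1657 genes were called lower without the offset and 523 with it, and the FTAZ:PCBM libraries lie between 0.0370 and 0.171.

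The genes described next were taken by a rule: the 6 largest rises and 6 largest falls among called genes with a mean of at least 1 CPM and with group ranges that do not overlap. Non-overlap is therefore not a finding for them, and their PC values describe the genes selected. Most of the 6 rises were low-expressed genes that set PC FTAZ:IT-M apart from the other PC groups. LOC111880079, a long non-coding RNA of 501 bp on scaffold NW_019672500.1 (1946785 to 1947510, plus strand), had the lowest adjusted p of the 6. It measured 8.93, 11, 9.61 and 7.85 CPM in the 4 FTAZ:IT-M libraries against 1.24, 1.24, 2.83 and 1.88 CPM in the FTAZ:PCBM libraries. Every FTAZ:IT-M plant was thus above 7 CPM and every FTAZ:PCBM plant below 3 CPM, with PC glass at 4.59 ± 0.68 CPM (SD, n = 4) in the gap. The log2 fold change was 2.38 (SE 0.24, edgeR quasi-likelihood adjusted p = 6.55e-08). In HC the same RNA was at 2.00 ± 0.62 CPM under FTAZ:IT-M and 1.41 ± 0.37 CPM under FTAZ:PCBM (SD, n = 4).

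LOC111916224, a protein-coding gene of 1004 bp with 2 exon blocks, had the largest rise. Its CPM was 2.44, 2.99, 3.31 and 1.61 under FTAZ:IT-M and 0.569, 0.381, 0.419 and 0.454 under FTAZ:PCBM. PC FTAZ:IT-M stood alone, since the means of all other groups lay between 0.362 and 0.639 CPM. Its log2 fold change was 2.50 (SE 0.37, edgeR quasi-likelihood adjusted p = 1.82e-05). LOC111885523, of 1819 bp, had the same arrangement at 3.41, 6.01, 5.41 and 2.99 CPM under FTAZ:IT-M against 0.874, 1.00, 0.879 and 1.38 CPM under FTAZ:PCBM, a log2 fold change of 2.10 (SE 0.37, edgeR quasi-likelihood adjusted p = 0.000138). Under PC glass it was at 1.65 ± 0.18 CPM (SD, n = 4).

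The other 3 rises differed in where the remaining groups lay. LOC111918441 measured 6.88, 4.97, 5.10 and 3.47 CPM under FTAZ:IT-M and 1.52, 0.763, 1.13 and 1.01 CPM under FTAZ:PCBM, and PC glass lay between them at 2.53 ± 0.86 CPM (SD, n = 4). Both HC filter groups were below all PC plants of these groups, at 0.288 and 0.198 CPM. Its log2 fold change was 2.20 (SE 0.44, edgeR quasi-likelihood adjusted p = 0.00054).

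LOC111918592 was high in the HC groups as well. Under adjusted light it was at 7.29, 7.0, 9.15 and 9.52 CPM with FTAZ:IT-M and 1.28, 2.21, 1.84 and 2.48 CPM with FTAZ:PCBM, a log2 fold change of 2.08 (SE 0.33, edgeR quasi-likelihood adjusted p = 3.53e-05). Without the adjustment the order of the means was opposite, 4.11 ± 1.2 CPM under FTAZ:IT-M and 7.96 ± 2.0 CPM under FTAZ:PCBM (SD, n = 4), although the HC difference alone was not called. LOC111917517 was the least stable of the 6, at 5.25, 4.29, 6.2 and 1.17 CPM under FTAZ:IT-M against 1.02, 0.963, 0.754 and 0.413 CPM under FTAZ:PCBM. FTAZ:IT-M replicate 4 lay close to the FTAZ:PCBM plants. Its log2 fold change of 2.42 (SE 0.76, edgeR quasi-likelihood adjusted p = 0.0188) missed the threshold without FTAZ:IT-M replicate 3 (adjusted p = 0.0518), without FTAZ:PCBM replicate 4 (adjusted p = 0.0526) and without the libraries marked b (adjusted p = 0.098), by the same edgeR test.

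The 6 largest falls separated into 2 arrangements by the level of the other groups, a grouping made after their values were seen. In the first, FTAZ:PCBM was near the HC level while FTAZ:IT-M and PC glass were lower. LOC111884077, a gene with a single exon block of 1236 bp, measured 1.54, 0.55, 1.58 and 2.22 CPM under FTAZ:IT-M and 3.27, 8.45, 17.7 and 16.8 CPM under FTAZ:PCBM. PC glass was at 3.50 ± 2.1 CPM and the HC groups at 13 ± 6.0 CPM with FTAZ:IT-M and 14.8 ± 1.2 CPM with FTAZ:PCBM (SD, n = 4). FTAZ:PCBM plants spread widely, with replicate 1 nearest to the FTAZ:IT-M plants. The log2 fold change was -2.96 (SE 0.54, edgeR quasi-likelihood adjusted p = 0.000196).

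LOC111904218, of 911 bp, followed the same arrangement, with PC glass between the filters. Its PC glass plants, at 1.29 to 3.92 CPM, lay above every FTAZ:IT-M plant and overlapped the FTAZ:PCBM plants. It was at 0.842, 0.836, 0.372 and 0.746 CPM under FTAZ:IT-M and at 1.71, 2.95, 8.25 and 5.74 CPM under FTAZ:PCBM, with FTAZ:PCBM replicate 1 again the lowest of its group. PC glass was at 2.15 ± 1.2 CPM, and HC was at 4.95 ± 1.1 CPM with FTAZ:IT-M and 6.31 ± 1.8 CPM with FTAZ:PCBM (SD, n = 4). This gave a log2 fold change of -2.73 (SE 0.45, edgeR quasi-likelihood adjusted p = 5.8e-05). Its 2 annotated neighbours moved the other way, LOC111904217 by 0.68 (edgeR quasi-likelihood adjusted p = 0.028) and LOC111904220 by 1.65 (adjusted p = 0.023, same test).

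LOC111886104, a protein-coding gene of 1879 bp with 3 exon blocks, was nearly silent under FTAZ:IT-M. The 4 libraries held 0, 0.0440, 0 and 0.0403 CPM, or 4 reads in all, against 0.569, 0.763, 4.71 and 2.19 CPM and 397 reads under FTAZ:PCBM. The ratio of the summed reads was 96.3 (95% exact conditional binomial interval 37.3 to 355, which covers counting error only). The edgeR log2 fold change of -6.44 (SE 0.90, quasi-likelihood adjusted p = 7.33e-06) rests on those few reads and depends on the prior count. PC glass was almost as low, at 0.0779 ± 0.082 CPM, while HC was at 2.11 ± 0.53 CPM under FTAZ:IT-M and 3.04 ± 1.3 CPM under FTAZ:PCBM (SD, n = 4).

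This gene ends a run of 4 neighbouring tested genes called lower, on scaffold NW_019680648.1 from 1928898 to 2130909, chosen for description after its values were seen. LOC111886119 measured 0.246, 0, 0.0657 and 0.0403 CPM under FTAZ:IT-M and 0.325, 0.502, 1.30 and 1.32 CPM under FTAZ:PCBM (log2 fold change -3.23, SE 0.77, edgeR quasi-likelihood adjusted p = 0.00241). The non-coding RNA LOC111886118 was at 3.82, 3.28, 2.98 and 2.76 CPM against 4.04, 5.76, 9.48 and 6.38 CPM (log2 fold change -1.0, SE 0.24, edgeR quasi-likelihood adjusted p = 0.00235). LOC111886105 was at 0.0205, 0, 0 and 0.0403 CPM against 0.0406, 0.12, 0.502 and 0.248 CPM, at or below the level of 3 counts in every FTAZ:IT-M library (log2 fold change -3.64, SE 1.07, edgeR quasi-likelihood adjusted p = 0.0123). In all 4 genes FTAZ:PCBM replicate 3 or 4 was the highest and replicate 1 the lowest plant of that group. Exonic lengths were 1766 to 2375 bp, and with the length offset the log2 fold changes were -3.23 for LOC111886119, -0.93 for LOC111886118, -3.65 for LOC111886105 and -6.43 for LOC111886104. The 3 protein-coding genes have 3 exon blocks each, but their sequences were not compared. If they are alike in sequence, reads may be divided between them or left uncounted, which was not tested.

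In the second arrangement, FTAZ:PCBM and PC glass were high and variable while FTAZ:IT-M was near or below the HC level. LOC111912265, of 2166 bp, was at 9.24, 7.48, 6.83 and 12.8 CPM under FTAZ:IT-M and at 58.1, 76.7, 25.8 and 33.3 CPM under FTAZ:PCBM. PC glass was at 51.6 ± 37 CPM and both HC filter groups at about 15 CPM, 15.7 ± 3.7 with FTAZ:IT-M and 15.4 ± 2.4 with FTAZ:PCBM (SD, n = 4). The log2 fold change in PC was -2.42 (SE 0.35, edgeR quasi-likelihood adjusted p = 1.59e-05). LOC111888460, of 2433 bp, measured 6.45, 6.98, 5.19 and 8.13 CPM against 46.6, 75.3, 15.5 and 29.4 CPM, a log2 fold change of -2.64 (SE 0.49, edgeR quasi-likelihood adjusted p = 0.000257). The FTAZ:PCBM plants kept 1 order in both genes, with replicate 2 highest and replicate 3 lowest.

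LOC111904729, of 683 bp, shared that order of plants at a lower level. It was at 0.369, 0.308, 0.394 and 0.525 CPM under FTAZ:IT-M and at 2.36, 3.09, 0.984 and 1.92 CPM under FTAZ:PCBM. The HC groups were at 0.441 ± 0.11 CPM with FTAZ:IT-M and 0.618 ± 0.24 CPM with FTAZ:PCBM, and PC glass was at 2.80 ± 2.2 CPM (SD, n = 4). The log2 fold change was -2.38 (SE 0.48, edgeR quasi-likelihood adjusted p = 0.000589). For these 3 genes the PTB7-Th:IEICO-4F plants in PC were near the level under glass, with means of 44.5, 51.7 and 3.45 CPM for LOC111888460, LOC111912265 and LOC111904729.

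**Figure D3:**
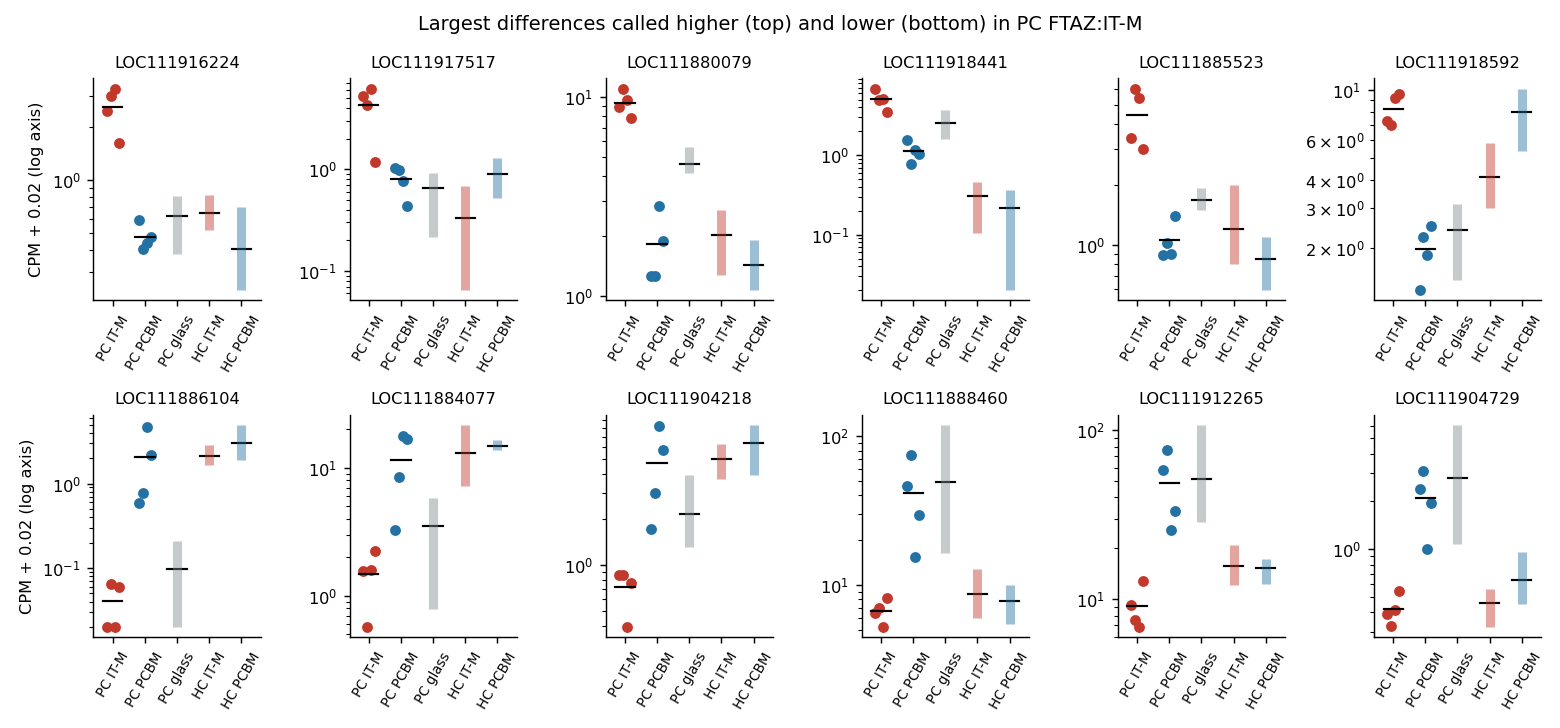
CPM plus 0.02 (log axis) of the 6 largest rises (top) and 6 largest falls (bottom) in PC FTAZ:IT-M. Points are the libraries of PC FTAZ:IT-M (red) and PC FTAZ:PCBM (blue), black lines are means, and bars span the lowest to the highest library of PC glass and of both FTAZ filters in HC. In the bottom row the first 3 genes have PC FTAZ:PCBM near both HC groups, and the last 3 have PC FTAZ:IT-M near or below both HC groups.

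Abundant genes were named by a separate rule. They were the 4 higher and 4 lower genes of highest mean CPM that were called with and without the length offset. A log2 fold change of at least 0.5 in size and non-overlapping ranges were also required, so non-overlap is not a finding for them. The genes above were chosen for large differences and these for level, so smaller differences here follow from the rules. LOC111919935, of 1440 bp, was at 4785, 4845, 5363 and 3426 CPM under FTAZ:IT-M and at 3005, 2485, 2918 and 3036 CPM under FTAZ:PCBM. FTAZ:IT-M replicate 4 was the lowest of its group. PC glass, at 2966 ± 176 CPM (SD, n = 4), was at the FTAZ:PCBM level, and the log2 fold change was 0.69 (SE 0.11, edgeR quasi-likelihood adjusted p = 4.97e-05). LOC111876064, of 1358 bp, was at 1147, 1528, 1687 and 761 CPM against 485, 424, 623 and 631 CPM, a log2 fold change of 1.24 (SE 0.22, edgeR quasi-likelihood adjusted p = 0.000154), with replicate 4 again nearest to the other group.

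LOC111881704 and LOC111889527 were higher by less. LOC111881704 had a mean of 1726 ± 278 CPM under FTAZ:IT-M and 1081 ± 91 CPM under FTAZ:PCBM (SD, n = 4), a log2 fold change of 0.68 (SE 0.12, edgeR quasi-likelihood adjusted p = 0.000101). LOC111889527 had means of 1651 ± 294 and 1139 ± 52 CPM (SD, n = 4), a log2 fold change of 0.53 (SE 0.12, edgeR quasi-likelihood adjusted p = 0.00136). For both, PC glass lay between the filters, at 1395 ± 95 and 1332 ± 36 CPM (SD, n = 4).

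LOC111906083, with 8 exon blocks and 1910 bp of exons, was the most abundant gene on the lower side. It measured 4830, 5115, 5133 and 6687 CPM under FTAZ:IT-M and 7125, 8294, 7310 and 8180 CPM under FTAZ:PCBM. FTAZ:IT-M replicate 4 stood above the other 3 plants of its group and near the lowest FTAZ:PCBM plant. Its log2 fold change was -0.51 (SE 0.13, edgeR quasi-likelihood adjusted p = 0.006), PC glass was at 7316 ± 162 CPM, and both HC filter groups were at about the same mean, 6252 and 6250 CPM. Per kilobase of exons its level was 2849 CPM under FTAZ:IT-M and 4046 CPM under FTAZ:PCBM, against 3198 and 1987 CPM per kilobase for LOC111919935.

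LOC111902198 was at 1102, 955, 1099 and 1182 CPM under FTAZ:IT-M and at 1664, 2141, 1736 and 1632 CPM under FTAZ:PCBM. The FTAZ:IT-M plants lay close together. The log2 fold change was -0.72 (SE 0.11, edgeR quasi-likelihood adjusted p = 2.72e-05). Its neighbours LOC111902186 and LOC111902199 were called in the other direction, with log2 fold changes of 0.37 and 0.62 (edgeR quasi-likelihood adjusted p = 0.0039 and 0.00016).

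LOC111921500 and LOC111913734 are the long genes of this set, with 5260 and 3440 bp of exons. LOC111921500 was at 365, 417, 425 and 433 CPM under FTAZ:IT-M and at 740, 786, 728 and 638 CPM under FTAZ:PCBM. Its log2 fold change moved from -0.82 (SE 0.16, edgeR quasi-likelihood adjusted p = 0.000329) to -0.43 with the length offset (adjusted p = 0.0164, same test). LOC111913734 was at 1265, 660, 1004 and 705 CPM against 1611, 1338, 2127 and 2242 CPM, a log2 fold change of -1.01 (SE 0.21, edgeR quasi-likelihood adjusted p = 0.000828) and of -0.83 with the offset. PC glass was at the FTAZ:IT-M level for LOC111913734, with 912 ± 258 CPM (SD, n = 4).

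Some called genes are neighbours on a scaffold and are described together, after their values were seen. Runs of at least 2 neighbouring tested genes called in 1 direction numbered 743, those of at least 3 numbered 119, and 3 runs reached the longest length of 5. With 12.3% of all genes called higher and 13% lower, neighbours called in 1 direction are frequent in any order of the genes, so these counts are a description only. One of these, on scaffold NW_019679663.1 from LOC111881935 to LOC111881934 in order of position, held 5 genes higher under FTAZ:IT-M, each with a single exon block of 669 to 723 bp. LOC111881938, the most abundant, was at 157, 302, 219 and 265 CPM under FTAZ:IT-M and 96.1, 174, 127 and 155 CPM under FTAZ:PCBM, so that the groups overlapped through FTAZ:IT-M replicate 1. Its log2 fold change was 0.77 (SE 0.25, edgeR quasi-likelihood adjusted p = 0.0255). In PC its mean was 236 CPM under FTAZ:IT-M, 242 CPM under glass, 277 CPM under PTB7-Th:IEICO-4F and 138 CPM under FTAZ:PCBM. For all 5 genes FTAZ:PCBM had the lowest mean of the PC groups. LOC111881933 was at 5.95, 31.9, 14.3 and 9.74 CPM against 2.93, 3.25, 4.56 and 6.97 CPM, a log2 fold change of 1.80 (SE 0.45, edgeR quasi-likelihood adjusted p = 0.00344). Replicate 1 was the lowest and replicate 2 the highest FTAZ:IT-M plant for all 5 genes. The log2 fold changes in HC were also positive, from 0.57 to 1.45, without a call. With the length offset, LOC111881935, LOC111881937 and LOC111881938 were no longer called (edgeR quasi-likelihood adjusted p = 0.0535, 0.0512 and 0.0774). The sequences of these genes were not compared. If they are alike, they may share reads, so the values of the single genes are uncertain.

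A run of 3 genes of low level was higher under FTAZ:IT-M on scaffold NW_019673724.1 (4972254 to 5702998). LOC111901696, LOC111901703 and LOC111901704 each have 1 exon block, and their log2 fold changes were 1.69, 1.56 and 1.64 (edgeR quasi-likelihood adjusted p = 0.0253, 0.00384 and 0.00317). LOC111901704 was at 0.965, 2.46, 0.854 and 0.605 CPM against 0.345, 0.502, 0.272 and 0.433 CPM. Every FTAZ:IT-M plant was above every FTAZ:PCBM plant, and PC glass was at the FTAZ:PCBM level with 0.360 ± 0.027 CPM (SD, n = 4).

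By gene type, which was looked at after the values were seen, small nucleolar RNA (snoRNA) genes were seldom called higher under FTAZ:IT-M. These short RNAs guide chemical modification of ribosomal RNA in the nucleolus. Of 2142 snoRNA genes listed, 122 passed the filter on low counts; 24 were called lower (19.7%) and 1 higher (0.82%) under FTAZ:IT-M, beside 13% and 12.3% of all genes tested. The median log2 fold change of the 122 was -0.33, with 94 below 0, against 0.01 over all genes tested. The shortest quintile of all genes had a median of the opposite sign, 0.12. With the length offset 8 snoRNA genes were called lower (6.56%) and 1 higher (0.82%), with a median of -0.15, beside 9.65% and 10.8% of all genes. The share called lower was thus above that of all genes without the offset and below it with the offset. However, the snoRNA genes were of low level, at 0.365 CPM in the median against 11.8 CPM over all genes tested. Of the 4897 genes in the lowest expression quintile (up to 1.35 CPM), 5.11% had an upward and 3.1% a downward call. Under the offset that quintile held 203 upward and 120 downward calls. Beside that quintile, the snoRNA share called lower was larger both without and with the offset. Few other genes set the offset at the length of the snoRNA genes, since 24 were tested in that range. Of those 24, 1 was called higher and 2 lower without the offset, with a median of -0.06.

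The snoRNA genes lie at 66 loci, counting members within 1000 bp as 1 locus, and 18 loci held a called member. Members of a locus can come from 1 precursor and are not independent. LOC111903810 was at 2.69, 2.42, 2.06 and 2.97 CPM under FTAZ:IT-M and 3.35, 4.96, 3.73 and 3.88 CPM under FTAZ:PCBM, a log2 fold change of -0.65 (SE 0.13, edgeR quasi-likelihood adjusted p = 0.000711). LOC111903813, at the same locus, was at 1.52, 1.14, 0.920 and 1.29 CPM against 1.89, 2.45, 1.72 and 2.37 CPM, a log2 fold change of -0.79 (SE 0.16, edgeR quasi-likelihood adjusted p = 0.00063). For both, every FTAZ:IT-M plant was below every FTAZ:PCBM plant, and both were also called with the length offset. The locus that starts with LOC111914536 held 5 tested snoRNA genes, 3 of them called lower. The 1 snoRNA gene called higher was LOC111877547.

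Of the 122 genes, 40 overlap another gene, and 12 of these were called lower and 0 higher (median -0.51); of the 82 others, 12 were called lower and 1 higher (median -0.26). With the length offset, 2 of the 40 were called lower and 0 higher, and 6 of the 82 lower and 1 higher. The 23 tested genes that hold or overlap them had 4 called lower, 0 higher and a median of -0.07. Of all genes tested, 13% were called lower and 12.3% higher, and with the offset 9.65% and 10.8%. Libraries were made by poly-A capture, which does not target mature snoRNAs, and reads of an unspliced host transcript cannot be told apart from reads of the snoRNA it holds.

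Summed over the 122 genes, the CPM was 153, 158, 147 and 157 under FTAZ:IT-M and 181, 198, 172 and 177 under FTAZ:PCBM, without overlap. LOC111876079 alone gave 59.3 to 82.7 CPM in FTAZ:IT-M and 73.9 to 91.5 CPM in FTAZ:PCBM and was not called (log2 fold change -0.16, edgeR quasi-likelihood adjusted p = 0.221). Without it the sums were 69.8 to 97.7 CPM and 89.1 to 112 CPM, which overlap through FTAZ:IT-M replicate 4. In HC the median log2 fold change of the 122 genes was -0.10.

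**Figure D4:**
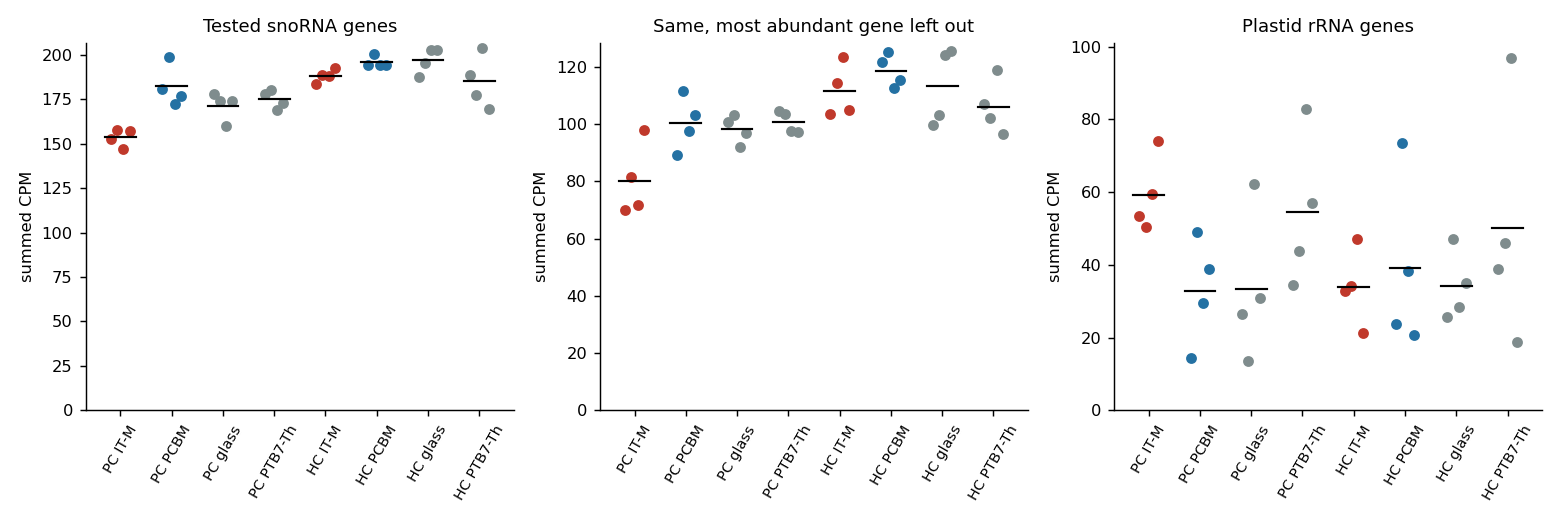
Summed CPM in each library (points) with group means (black lines), for the 122 tested snoRNA genes, for the same without LOC111876079, and for the plastid ribosomal RNA genes. FTAZ:IT-M (red) lies at 147 to 158 CPM and FTAZ:PCBM (blue) at 172 to 198 CPM in PC for all snoRNA genes, and the plastid sums are 50.4 to 74.0 and 14.5 to 48.9 CPM.

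The 2 largest gene types had medians near 0. Of 21742 protein-coding genes tested, 2844 were called higher (13.1%) and 2893 lower (13.3%), with a median log2 fold change of 0.01. Of 1698 long non-coding RNA genes, 111 were called higher (6.54%) and 178 lower (10.5%), both below the 12.3% and 13% of all genes tested, with a median of -0.02. Their median level was 2.52 CPM, against 11.8 CPM over all genes tested. In the expression quintile from 1.35 to 6.8 CPM, 10.9% of all genes were called higher and 8.17% lower.

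Among genes with a symbol of their own, 2 plastid genes were called. LasaCr007, a plastid ribosomal RNA gene of 1491 bp, was at 17.4, 14.1, 19.2 and 19 CPM under FTAZ:IT-M and at 4.59, 11, 6.28 and 9.99 CPM under FTAZ:PCBM, a log2 fold change of 1.13 (SE 0.38, edgeR quasi-likelihood adjusted p = 0.0286). LasaCr001, a gene of the same length, was at 16.3, 15, 17.8 and 17.8 CPM against 3.70, 9.69, 6.57 and 9.74 CPM but was not called (log2 fold change 1.17, SE 0.49, edgeR quasi-likelihood adjusted p = 0.0766). Every FTAZ:IT-M plant was above every FTAZ:PCBM plant in both. The plastid genome carries its ribosomal RNA genes in an inverted repeat, so the copies share reads and either value alone is uncertain, and poly-A capture does not target these RNAs. LasaCr002 was at 25.2 and 17.5 CPM on average, with overlapping groups (log2 fold change 0.52, edgeR quasi-likelihood adjusted p = 0.462). LasaCr007 was no longer called without FTAZ:IT-M replicate 3 or 4 or without FTAZ:PCBM replicate 1 or 3 (adjusted p from 0.0529 to 0.104, same test), nor without the libraries marked b (adjusted p = 0.0859).

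LasaCt002, the plastid gene trnK for a lysine transfer RNA, had the opposite direction. Its counted stretch is 1 exon block of 2608 bp, against a median of 74 bp for the 10 tested transfer RNA genes. Its value is therefore not a level of the mature transfer RNA, which poly-A capture does not target. It was at 3.72, 3.67, 5.01 and 4.50 CPM under FTAZ:IT-M and at 5.95, 6.08, 6.26 and 6.31 CPM under FTAZ:PCBM, where the plants lay close together. Between the filters it gave a log2 fold change of -0.54 (SE 0.19, edgeR quasi-likelihood adjusted p = 0.0385), but with the length offset it was -0.43 and not called (adjusted p = 0.13), and the call was also lost without any 1 of 6 libraries. Nuclear genes with a functional name numbered 2. LOC111889525, triosephosphate isomerase of glycolysis, had a log2 fold change of 0.17 (SE 0.10, edgeR quasi-likelihood adjusted p = 0.248). LOC111883376, the cytosolic glutamine synthetase GS(1) that assimilates ammonium, had one of -0.14 (SE 0.08, edgeR quasi-likelihood adjusted p = 0.253). Neither passed the threshold.

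Without adjustment of light intensity, the same pair of filters gave 0 calls (0%) in edgeR's quasi-likelihood test over 24483 genes. There 1063 genes had an unadjusted p under 0.05, the lowest adjusted p was 0.615, DESeq2 called 3 genes, and ranges did not overlap for 733 genes (2.99%). Correlations of log2 CPM between the 2 HC filter groups had a median of 0.984. Of the 6210 genes called in PC, 4299 (69.2%) had a fold change of the same sign in HC. This share is a description only, since the same share over all genes tested is not given. Over all 24483 genes the PC and HC fold changes had a Spearman's rho of 0.22. The HC sizes were small, with medians of 0.07 for genes called higher and -0.03 for genes called lower. For the 412 genes higher by at least 1 the median log2 fold change was 1.34 in PC and 0.15 in HC, and for the 184 lower it was -1.36 in PC and -0.11 in HC. Genes were picked here by their PC value, which favours larger values in PC.

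The test of the difference itself, HC minus PC, called 1484 genes (6.06%) in edgeR's quasi-likelihood interaction contrast. Of these, 1453 were also called in PC, 639 higher and 814 lower under FTAZ:IT-M. The interaction was called for 147 of the 412 genes higher by at least 1 and 65 of the 184 lower. LOC111918592 had the interaction value -3.03 (SE 0.45, edgeR quasi-likelihood adjusted p = 0.000252), LOC111880079 -1.88 (SE 0.34, adjusted p = 0.00176), and LOC111912265 2.45 (SE 0.49, adjusted p = 0.0037). For LOC111918441, LOC111885523 and LOC111904729 it did not pass the threshold (adjusted p = 0.191, 0.0662 and 0.102, same test). With 1 library left out the count moved both ways, from 809 (without PC FTAZ:IT-M replicate 2) to 1802 (without PC FTAZ:PCBM replicate 4). It was 944 without PC FTAZ:PCBM replicate 1, 928 without HC FTAZ:IT-M replicate 1 and 987 without HC FTAZ:PCBM replicate 2. The count rose to 1605 without PC FTAZ:IT-M replicate 1, 1636 without PC FTAZ:IT-M replicate 4 and 1494 without HC FTAZ:PCBM replicate 3. Leaving out a plant also makes its group smaller. With the length offset 888 genes (3.63%) were called, and 682 without the libraries marked b.

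**Figure D5:**
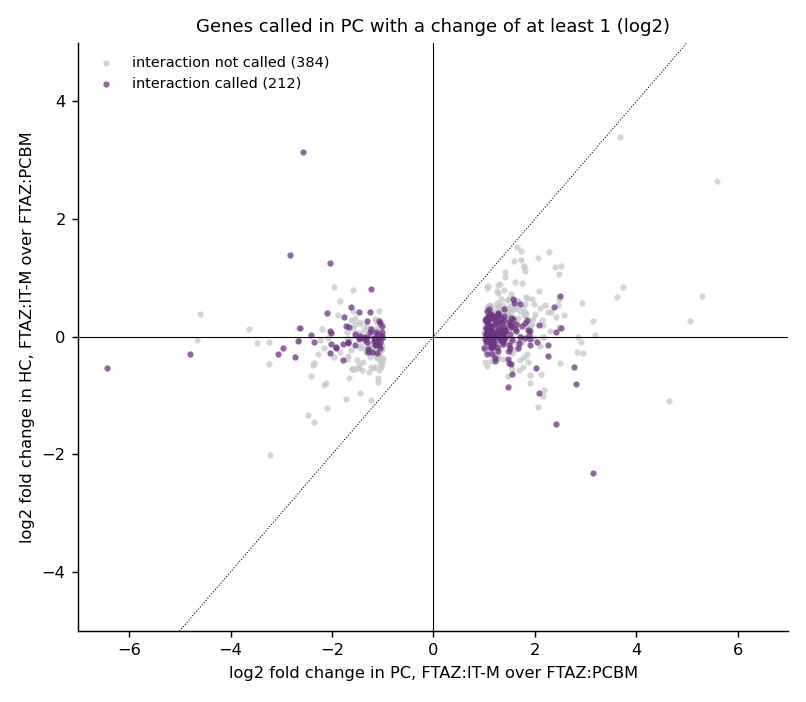
Log2 fold change of FTAZ:IT-M over FTAZ:PCBM in HC (vertical axis) against that in PC (horizontal axis) for the 596 genes called in PC with a change of at least 1, with 1 point per gene; purple marks genes whose interaction was called and the dotted line is equality. Most points lie near 0 on the vertical axis, with medians of 0.15 and -0.11 for genes higher and lower in PC.

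The mean under PC glass was set beside both filters for each called gene, and for most of them it lay between the filters. Its mean lay between the 2 filters for 2487 of the 3019 genes called higher, above both for 288 and below both for 244. For the 3191 genes called lower it lay between them for 2191, above both for 258 and below both for 742. On the log2 scale, glass was nearer to FTAZ:PCBM than to FTAZ:IT-M for 1405 of the 3019 genes called higher (46.5%) and 1116 of the 3191 called lower (35%), beside 46.6% of all genes tested. Among large changes it was nearer to FTAZ:PCBM for 252 of the 412 genes higher by at least 1 and for 89 of the 184 genes lower by at least 1. These are descriptions of genes chosen for a difference between the filters. The counts between, above and below both filters have no share over all genes tested beside them.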

How the data were processed

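Leaf mRNA of 32 plants, 4 in each of 8 groups, was sequenced by the submitters after poly-A capture, with all libraries in 1 pool, per the labels' protocols. Values are unnormalized read counts as deposited, 1 per gene; featureCounts 2.0.1 counted exons of the Lsat_Salinas_v7 annotation, per the file headers, with no option for strand, multi-mapping reads or pairs shown. FastQC, HISAT2 and DESeq2 are named in the submitters' processing notes. Positions are those of the files.

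Genes were filtered with filterByExpr (minimum count 10, minimum total 15), which left 24483 of 43717. TMM-scaled counts of all 32 samples were fitted with a mean per group in edgeR 4.0.16 (limma 3.58.1, R 4.3.3) and tested with the quasi-likelihood F-test and Benjamini-Hochberg adjustment over all genes tested; called means an adjusted p under 0.05. CPM is counts per 1000000, TMM-scaled. Length slopes used log2 CPM with a prior count of 2 and exact permutation over samples. Alternatives used DESeq2 1.42.0, other filters, fits and left-out libraries. Scripts were tested on simulated data. EdgeR p-values rest on the spread between the 4 plants within each group. In the fit of all 32 samples that spread is a shared estimate over all 8 groups, not of the 2 groups compared alone.

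The comparison, gene lists and tests were chosen with earlier results of these data known. The naming rule took the 6 largest rises and falls with at least 1 CPM and non-overlapping ranges, the 4 most abundant genes each way that were also called with the length offset and moved by at least 0.5, and called genes with a symbol. A RefSeq gene table matched 37916 identifiers by symbol or locus tag and gives gene types but no products, so lists by pathway and protein or promoter motifs were not used here.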

Additional observations from a re-analysis of the deposited data

Results flagged for a closer look

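The difference between the filters was not the same in the 2 experiments for 1484 genes, by the interaction contrast (HC minus PC, edgeR quasi-likelihood test). Among the 22 genes named by rule, 12 were called in that contrast. Their interaction log2 fold changes were -1.80 for LOC111916224, -3.90 for LOC111917517, -1.88 for LOC111880079, -3.03 for LOC111918592 and -0.72 for LOC111919935, all higher under FTAZ:IT-M in PC. They were 5.91 for LOC111886104, 2.78 for LOC111884077, 2.38 for LOC111904218, 2.79 for LOC111888460, 2.45 for LOC111912265, 0.64 for LOC111902198 and 0.90 for LOC111921500, all lower under FTAZ:IT-M in PC. These genes were named for large differences in PC, which favours an interaction of this sign.

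A single library stood apart in 2 of 56 combinations of a measure and a group, where chance gives about 2.8. The number of genes detected in PC FTAZ:PCBM replicate 3, 26273, was the lowest of its group, with a gap to the next library of 0.902 of the group's range. The CPM of LOC111906083 in PC FTAZ:IT-M replicate 4, 6687, was the highest of its group, with a gap of 0.837 of the range.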

How the results depend on the processing

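In PC, edgeR called 6210 genes. The count was 3542 with only the groups compared in the fit and 3620 without FTAZ:PCBM replicates 2 and 3. That last alternative was chosen after seeing the data and has fewer samples. The count was 596 at an absolute log2 fold change of at least 1, and 4756 to 6137 with 1 replicate left out. It was 6602 by DESeq2, 5662 without a filter, 5455 at a mean CPM of at least 5, 5676 from the PC samples alone (2988 higher, 2688 lower) and 5496 with the length offset and without FTAZ:IT-M library 4, also chosen after seeing the data. In HC, 0 genes were called by edgeR under every alternative run, 0 to 0 with 1 replicate left out, and 3 by DESeq2. The interaction gave 1484 calls, 950 with only the groups compared, 888 with the length offset and 848 with the replicate block and length offset. It gave 682 without FTAZ:PCBM replicates 2 and 3 in PC and 228 at an absolute log2 fold change of at least 1. With 1 replicate left out it gave 809 to 1802, and the cause was not tested. The length slope difference was -0.138 to -0.0829 with 1 replicate left out.

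Replicate numbers name different plants, the labels tie them to no shared batch, and not every same-numbered pair deviated together, so the samples were not treated as pairs. Correlations of same-numbered deviations in PC were 0.298, 0.216, -0.0159 and 0.102, and 3 of 4 libraries correlated best with their own number, a hint from the data and not the design. With the replicate block, 6152 genes were called in PC, 0 in HC and 1432 in the interaction, and the slope difference had an exact permutation p of 0.125, the smallest that 4 pairs allow; same-numbered slope differences were -0.115, -0.132, -0.0788 and -0.122.

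Apart from the threshold of at least 1, the 22 named genes had 409 values under alternatives: 389 kept direction and call, 0 reversed, and 20 lost the call, all of LOC111917517, LasaCt002 or LasaCr007. At that threshold 7 genes, with a log2 fold change under 1 in size, were not called. At this depth, genes near 0.062 CPM rest on about 3 reads.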
